A study of Mus musculus with 20 samples.

Results

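The aryl hydrocarbon receptor and the genes that carry and limit its signal were read as 9 genes out of the 23373 gene IDs of a count table from mouse Hepa-1 hepatoma cells. They were chosen by name, as the rows whose Entrez gene ID belongs to Ahr, its dimer partners Arnt and Arnt2, the repressor Ahrr, the feedback gene Tiparp, the cochaperone Ptges3, and the coactivators Ncoa1, Ncoa2 and Ncoa3. All 9 had a row. A filter on low counts kept 8 of them among the 14343 gene IDs tested and removed Ahrr, which had too few counts, with 24 in all 20 libraries together. Arnt2 was kept with 337 counts, from 3 to 52 in a library, so its values are coarse.

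The study asked how long growth with hexavalent chromium, Cr(VI), changes the transcripts of these cells and their response to benzo[a]pyrene (B[a]P), a combustion product that binds the receptor. RNA was sequenced from 2 libraries of each of 10 groups. At passage 25 there were recovered cells (20 passages in Cr(VI), then 5 free of it), Cr(VI)-grown cells and control-grown cells, and at passage 20 Cr(VI)-grown and control-grown cells, each given B[a]P or its solvent DMSO for 8 h. Every group was Hepa-1, a single line that grew in 5% serum with a passage each 3 days. As labelled, Cr(VI) was at 0.5 mM and B[a]P at 5 mM, and titles of the later set carry 27 where the passage label says 25. Titles of passage 20 do not name DMSO, and they call the control-grown cells without B[a]P untreated. Whether duplicates are separate cultures is not labelled, so p-values reflect the spread between libraries alone, and this may be technical. Among hepatoma markers, Apoa1, Apob and Hnf4a stayed under 1 CPM in every library, while the summed level of the whole list was between 1631 and 8777 CPM.

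In the absence of ligand the receptor sits in the cytoplasm in a complex with the chaperone HSP90 and the cochaperone encoded by Ptges3. A ligand such as B[a]P moves it to the nucleus, where it pairs with ARNT, binds DNA at a short core and recruits coactivators of the NCOA family, and genes such as Cyp1a1 are then transcribed. The signal is limited by proteolysis of the receptor, by the repressor AHRR, which competes for ARNT, and by TIPARP, an enzyme that attaches ADP-ribose to the receptor; Tiparp and Ahrr are themselves known targets of the receptor. Mutant clones of Hepa-1 served to identify ARNT.

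The core that the receptor and ARNT bind, GCGTG on either strand (CACGC on the reverse), was looked up in RefSeq promoter windows of GRCm38.p6, each with 250 bases before and 50 after a gene's start. A window was found for 6 of the 9 members, and 5 of these held the core: Arnt, Ahrr, Tiparp, Ptges3 and Ncoa1. The core is common: 32.4% of all 32851 windows hold it, and 53.0% of the 11159 tested genes with a window have it in at least 1. The windows of the 2 feedback genes are shown because Tiparp responded in every pair of libraries while Ahrr was hardly counted. Capitals mark the core, and both run 5′ to 3′ on the gene's own strand; Tiparp is chr3:65528197-65528496 on the plus strand, with 1 core 170 bases before the start in the reverse orientation, and Ahrr is chr13:74292282-74292581 on the minus strand, with 3 cores 107, 82 and 27 bases before the start.
Tiparp promoter: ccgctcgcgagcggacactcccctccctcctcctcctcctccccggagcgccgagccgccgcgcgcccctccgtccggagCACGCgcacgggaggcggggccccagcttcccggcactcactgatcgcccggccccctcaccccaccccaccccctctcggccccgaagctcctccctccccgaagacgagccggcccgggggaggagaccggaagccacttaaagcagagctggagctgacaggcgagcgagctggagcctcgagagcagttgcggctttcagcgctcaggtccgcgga
Ahrr promoter: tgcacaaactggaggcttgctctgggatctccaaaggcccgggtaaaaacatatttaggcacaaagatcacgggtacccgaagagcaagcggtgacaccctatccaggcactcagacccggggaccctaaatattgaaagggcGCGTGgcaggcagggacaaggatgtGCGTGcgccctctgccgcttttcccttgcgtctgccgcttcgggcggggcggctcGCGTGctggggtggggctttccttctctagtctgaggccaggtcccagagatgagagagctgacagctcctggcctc
These matches describe the sequence only, and no binding was measured.

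Levels were compared between genes as CPM per kb of exon, where CPM are counts divided by the library total after TMM scaling. Ptges3 was the highest, with a median of 118.5 CPM per kb over the 20 libraries and a range of 20.4 to 154. The medians of the next 4 genes were 12.9 for Ncoa3, 9.30 for Ahr, 7.42 for Arnt and 6.17 for Tiparp, and their ranges overlapped one another, with Tiparp spread most widely, from 0.785 to 43.4. Ncoa2 followed at 1.87 and Ncoa1 at 0.623, and Arnt2 and Ahrr were far lower, at 0.0668 and 0.0058. Arnt was far more abundant than Arnt2 in these cells, and the coactivator order was Ncoa3, Ncoa2, Ncoa1 by median.

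**Figure D1:**
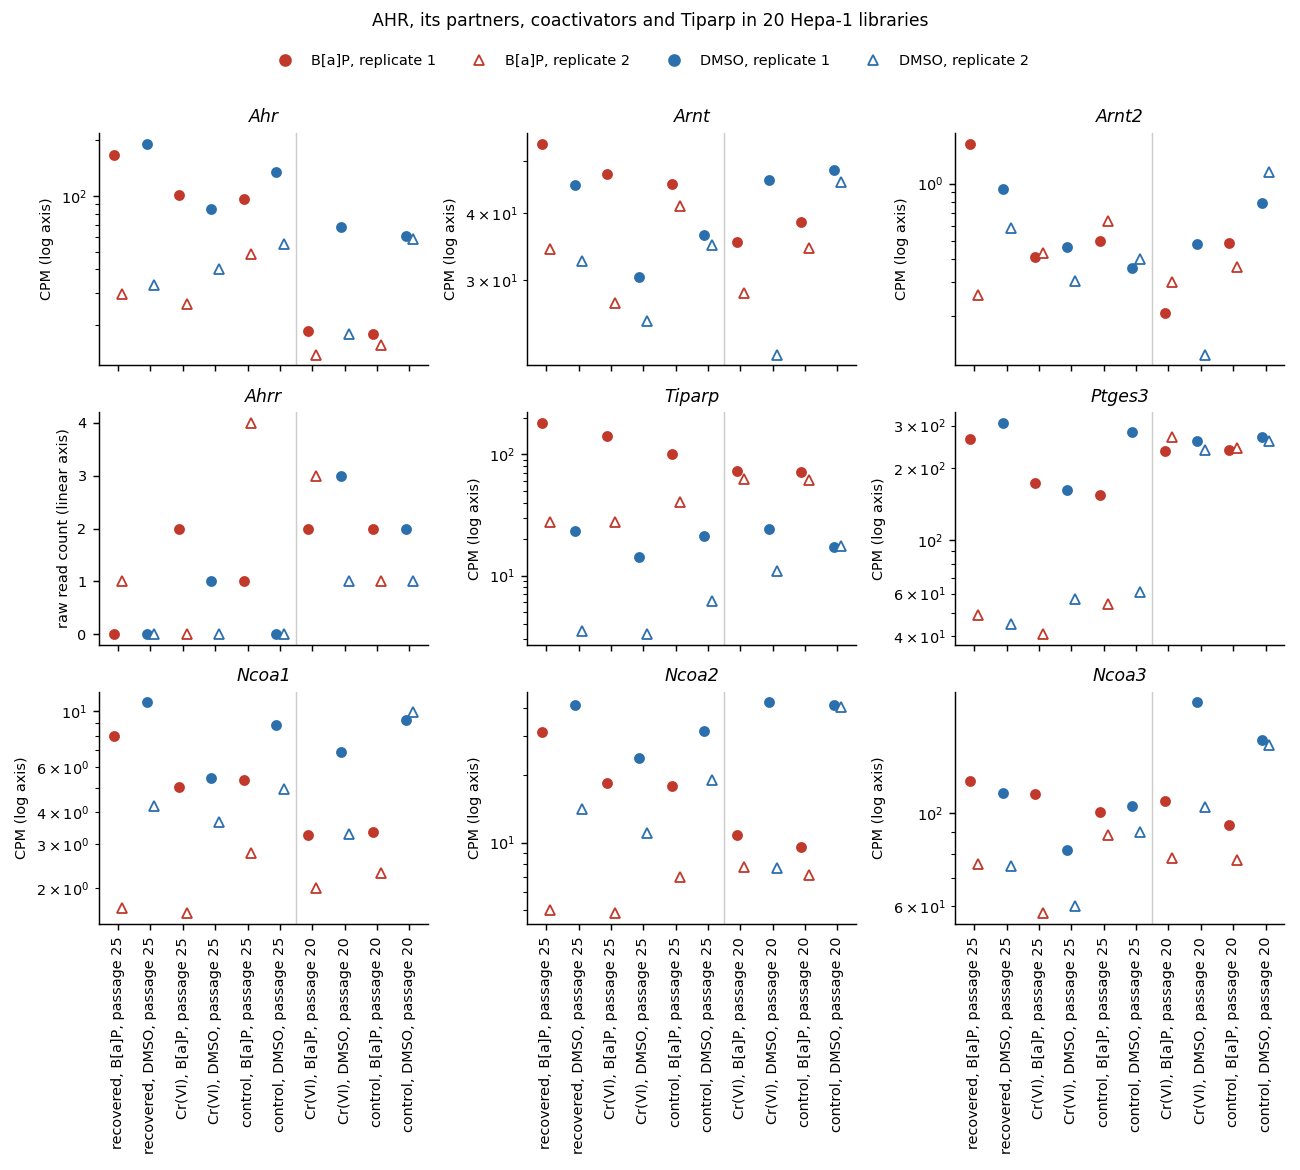
Level of each member in all 20 libraries, in CPM on a log axis (Ahrr as raw counts on a linear axis), with B[a]P in red and DMSO in blue, circles for replicate 1 and triangles for replicate 2, and passage 25 left of the grey line. Tiparp lies higher under B[a]P in every pair, from 27.4 to 182 CPM against 3.29 to 24.2 CPM under DMSO, and replicate 2 of passage 25 lies low for several members.

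Libraries differed in ways the groups do not explain. Total counts were 20976045 to 37930720. The 100 top genes held 29.6% to 34.3% of all counts in replicate 2 of passage 25, but 15.7% to 26.0% in replicate 1. Ahr was lower in replicate 2 than in replicate 1 in all 6 groups of that passage, by -0.98 to -2.54 on the log2 scale, and so were Ptges3 (-1.51 to -2.78), Tiparp (-1.31 to -2.72) and Ncoa2 (-0.73 to -2.63). Arnt moved less, by -0.06 to -0.80. Replicate numbers paired the libraries of passage 25, so values from a second fit, blocked by replicate number within passage 25 (the block), stand beside a result where they change the call; all others are without it.

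Tiparp, the feedback enzyme, was the member that rose with B[a]P. Recovered cells held 182 CPM in replicate 1 and 27.4 in replicate 2 under B[a]P, against 23.5 and 3.5 CPM under DMSO. In Cr(VI)-grown cells of passage 25 it was 141 and 27.8 CPM under B[a]P, against 14.3 and 3.29 under DMSO. Control-grown cells of that passage held 100.2 and 40.4 CPM under B[a]P, against 21.3 and 6.12 under DMSO. Within each of these 3 backgrounds both B[a]P libraries lay above both DMSO libraries, although replicate 2 was far lower than replicate 1 in every group. At passage 20 the duplicates were closer, with 73.2 and 62.7 CPM under B[a]P against 24.2 and 10.95 under DMSO in Cr(VI)-grown cells. Control-grown cells of passage 20 had 71.3 and 61.0 CPM under B[a]P against 17.3 and 17.7 under DMSO. No B[a]P library overlapped any DMSO library for Tiparp, in any background. How many of all genes lacked overlap was not counted, here or for the other members.

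Over the 5 growth backgrounds Tiparp rose 5.60-fold with B[a]P (log2 2.49 ± 0.50 SE, 10 against 10 libraries, edgeR quasi-likelihood adjusted p = 0.00757). Leaving out any 1 library kept its log2 change between 2.10 and 2.88 and its adjusted p at 0.0287 or below. The 10 pairs of equal replicate number gave log2 differences of 1.59 to 3.30 with a median of 2.61, all higher under B[a]P, which holds for 6.04% of all genes tested. At passage 20 the numbers do not pair all libraries, so a pair there is taken as a match of numbers only. Tiparp was the 1 member of 8 past the adjusted threshold of 0.05 in this comparison, and 7.59% of all genes passed it. With the block, 4 of 8 members passed, where 26.9% of all genes did: Tiparp higher (log2 2.51 ± 0.17, adjusted p = 2.01e-07), and Ahr, Ncoa1 and Ncoa2 lower. Among the 4985 genes with a genomic span like that of Tiparp, 10 to 31.6 kb, 99.6% had a lower fitted change.

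The Tiparp response was present in each growth history, and its size did not differ detectably between them. In recovered cells its log2 change was 2.95 ± 1.14, which did not pass (edgeR adjusted p = 1.00) and passed with the block (2.94 ± 0.38, adjusted p = 0.00129). In Cr(VI)-grown cells over both passages it was 2.60 ± 0.80 (edgeR adjusted p = 0.193; with the block 2.57 ± 0.27, adjusted p = 8.22e-05). For control-grown cells of the 2 passages it was 2.14 ± 0.78 (edgeR adjusted p = 0.249; with the block 2.23 ± 0.26, adjusted p = 8.56e-05). These 3 comparisons had 0 of 8 members past the threshold without the block, where 0.0558% of all genes passed in recovered, 0.941% in Cr(VI)-grown and 2.20% in control-grown cells. With the block 1 member passed in recovered cells (1.35% of all genes), 1 in Cr(VI)-grown cells (10.5%) and 3 in control-grown cells (15.3%), where Ncoa1 and Ncoa2 joined Tiparp. The difference in the Tiparp response between Cr(VI)-grown and control-grown cells was 0.47 ± 1.06 on the log2 scale, and between recovered and control-grown cells 0.60 ± 1.5 (edgeR adjusted p = 1.00 for both; the 2 differences share the control-grown libraries of passage 25).

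**Figure D2:**
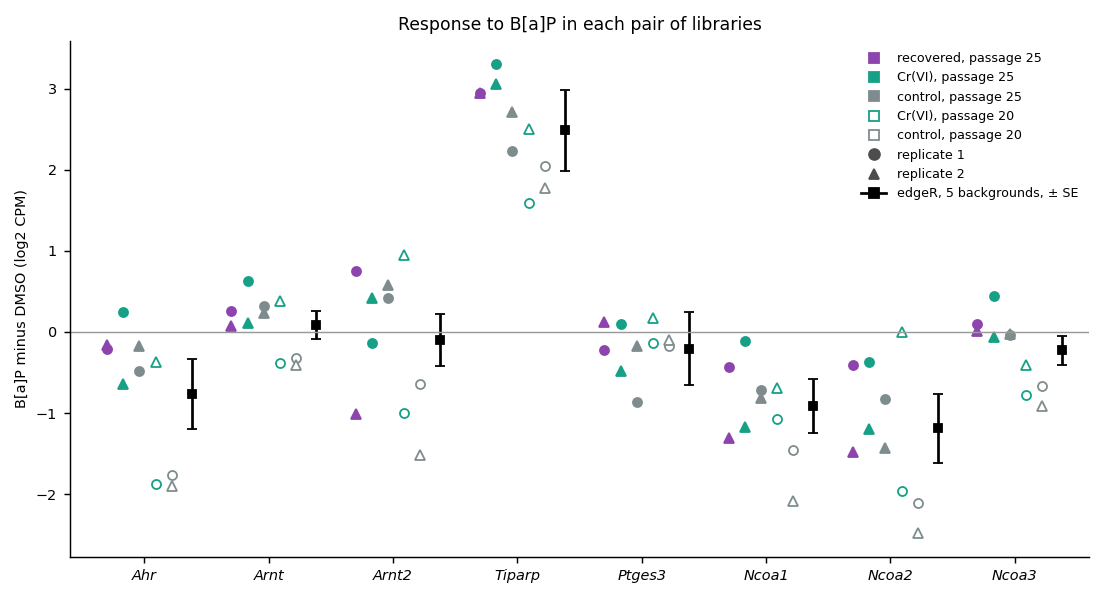
B[a]P minus DMSO difference in log2 CPM for each of the 10 pairs of equal replicate number (coloured points, filled for passage 25, open for passage 20) and the edgeR estimate over 5 backgrounds with its SE (black squares), for the 8 members tested. Tiparp lies between 1.59 and 3.30 in all pairs, and Ncoa1 lies below 0 in all pairs. Ahr and Ncoa2 have their lowest points at passage 20, where a pair is a match of numbers only. Replicate 2 of Cr(VI)-grown cells of that passage lies higher, at -0.37 for Ahr and 0.01 for Ncoa2.

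Ahrr, the other feedback gene, could not be tested. It had 0 to 4 counts in a library and none in 7 of 20. The 10 B[a]P libraries held 16 counts in all, or 0.0505 CPM of the unscaled totals, with an exact 95% Poisson interval of 0.0289 to 0.0821. The 10 DMSO libraries held 8, or 0.0284 CPM, with an interval of 0.0123 to 0.0561. The intervals overlap and cover counting error only, and in the 7 libraries at 0 the depth allows up to 0.0875 to 0.138 CPM. The receptor's repressor was near the limit of detection with and without the ligand, although its promoter window holds 3 cores.

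Ahr, the receptor itself, was lower under B[a]P at passage 20. Control-grown cells of passage 20 had 17.9 and 15.5 CPM under B[a]P, against 61.0 and 58.3 CPM under DMSO. Cr(VI)-grown cells of that passage had 18.5 and 13.8 CPM under B[a]P, against 67.9 and 17.8 CPM under DMSO. In Cr(VI)-grown cells replicate 2 of DMSO lay within the range of the B[a]P libraries. At passage 25 the recovered cells had 166 and 29.3 CPM under B[a]P, against 192 and 32.9 under DMSO. Cr(VI)-grown cells had 101.04 and 25.8 CPM under B[a]P, against 85.3 and 40.3 under DMSO. Control-grown cells had 95.8 and 48.5 CPM under B[a]P, against 134 and 54.7 under DMSO. All 3 backgrounds of passage 25 overlapped between B[a]P and DMSO, where the duplicates lay far apart.

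Over the 5 backgrounds the log2 change of Ahr was -0.76 ± 0.43, which did not pass (edgeR adjusted p = 0.392) and passed with the block (-0.79 ± 0.22, adjusted p = 0.0155). In the 6 pairs of passage 25 its B[a]P library was the lower one in 5, with log2 differences of -0.64 to 0.24. At passage 20 numbers do not pair all libraries, and in Cr(VI)-grown cells replicate 1 of B[a]P (18.5 CPM) lay above replicate 2 of DMSO (17.8 CPM). In control-grown cells of passage 20 the change was -1.83 ± 0.98 (edgeR adjusted p = 0.638; with the block -1.83 ± 0.50, adjusted p = 0.0297). In control-grown cells of passage 25 it was -0.39 ± 0.95 and in Cr(VI)-grown cells of that passage 0.02 ± 0.95 (edgeR adjusted p = 1.00 for both). The difference between passages in the B[a]P effect was 1.44 ± 0.96 (edgeR adjusted p = 1.00; with the block 1.36 ± 0.49, adjusted p = 0.384), so the smaller values at passage 25 are not shown to differ from those at passage 20. In bulk RNA, fewer cells that carry a transcript and less of it per cell cannot be told apart.

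Arnt, the obligate partner, did not pass the threshold with B[a]P. Its 10 B[a]P libraries ran from 27.1 to 53.8 CPM, against 21.8 to 48.0 CPM in the 10 DMSO libraries, and the ranges overlapped almost fully. The change over 5 backgrounds was 0.09 ± 0.17 (edgeR adjusted p = 0.933), which averages values of opposite sign. Control-grown cells of passage 20 had 38.4 and 34.5 CPM of Arnt under B[a]P, against 48.0 and 45.7 CPM under DMSO (log2 -0.36 ± 0.38, edgeR adjusted p = 1.00). In the 6 pairs of passage 25 Arnt was higher under B[a]P by 0.07 to 0.63. How many of all genes did the same was not counted. The median fitted change of genes of 31.6 to 100 kb, the bin of Arnt, was 0.26 in Cr(VI)-grown cells of that passage. It was 0.08 in recovered and -0.07 in control-grown cells. The passage difference of the B[a]P effect on Arnt was 0.57 ± 0.38 (edgeR adjusted p = 1.00; with the block adjusted p = 0.524). Arnt2, a partner used mainly in neural tissue, gave -0.10 ± 0.33 (edgeR adjusted p = 0.972) from few counts, with 5 pairs of equal number in each direction.

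The ratio of receptor to partner within a library combined the changes of both genes. At passage 20 the Ahr to Arnt ratio of CPM per kb was 0.456 and 0.423 under B[a]P in Cr(VI)-grown cells, against 1.29 and 0.713 under DMSO. In control-grown cells it was 0.406 and 0.393 under B[a]P, against 1.11 and 1.11 under DMSO. All 4 B[a]P libraries of passage 20 thus held less Ahr than Arnt transcript per kb, as did 1 of the 4 DMSO libraries. At passage 25 replicate 1 gave 2.69, 1.87 and 1.84 under B[a]P in recovered, Cr(VI)-grown and control-grown cells, against 3.72, 2.44 and 3.21 under DMSO. In replicate 2 the same order gave 0.746, 0.829 and 1.03 under B[a]P, against 0.880, 1.39 and 1.36 under DMSO. The ratio was lower under B[a]P in all 10 pairs, a description of these libraries with no test. At passage 25 Arnt was higher under B[a]P in all 6 pairs, and in replicate 1 of Cr(VI)-grown cells the ratio was lower although Ahr itself was higher by 0.24 on the log2 scale. The Tiparp to Ahr ratio separated the treatments without overlap, at 1.10 to 6.01 under B[a]P against 0.108 to 0.813 under DMSO.

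**Figure D3:**
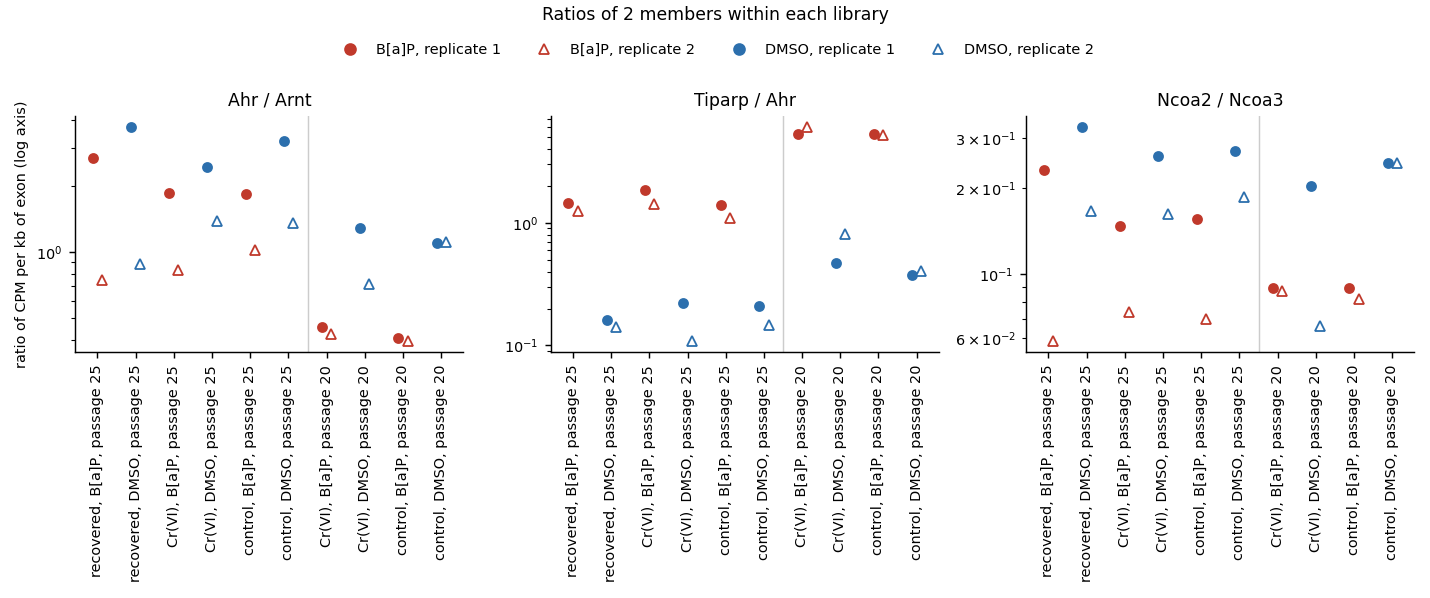
Ratios of CPM per kb of exon within each of the 20 libraries (log axes), B[a]P in red and DMSO in blue, circles for replicate 1 and triangles for replicate 2. Tiparp to Ahr separates B[a]P from DMSO in every library, Ahr to Arnt is lower under B[a]P within each pair, and the Ncoa2 to Ncoa3 ratio of replicate 2 of Cr(VI)-grown DMSO cells at passage 20 (0.0659) lies with the B[a]P libraries.

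The 3 coactivators differed in how far they moved, Ncoa2 and Ncoa1 more than Ncoa3. Ncoa2, which spans 235.1 kb, had 10.8 and 7.75 CPM under B[a]P in Cr(VI)-grown cells of passage 20, against 42.4 and 7.72 under DMSO. In control-grown cells of passage 20 it had 9.54 and 7.17 CPM under B[a]P, against 41.3 and 40.4 under DMSO. The control-grown groups lay far apart, and replicate 2 of Cr(VI)-grown cells under DMSO again lay with the B[a]P libraries. At passage 25 recovered cells had 31.2 and 5.00 CPM under B[a]P, against 41.3 and 14.1 under DMSO. Cr(VI)-grown cells had 18.6 and 4.82 CPM under B[a]P, against 23.9 and 11.1 under DMSO. Control-grown cells had 17.9 and 7.0 CPM under B[a]P, against 31.7 and 19.0 under DMSO. Of these 3 backgrounds only the control-grown one had both B[a]P libraries below both DMSO libraries.

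Over 5 backgrounds the log2 change of Ncoa2 was -1.19 ± 0.42 (edgeR adjusted p = 0.120), and it passed with the block (-1.30 ± 0.26, adjusted p = 0.00167). Ncoa1, which spans 229.8 kb, was counted at 1.59 to 8.01 CPM under B[a]P and 3.28 to 10.8 CPM under DMSO. It was lower under B[a]P in all 10 pairs, by -0.12 to -2.08, which holds for 6.26% of all genes tested. At passage 20 both B[a]P libraries of control-grown cells lay below both DMSO libraries. In Cr(VI)-grown cells of that passage replicate 1 of B[a]P (3.26 CPM) and replicate 2 of DMSO (3.28 CPM) were nearly equal. Its change was -0.92 ± 0.33 (edgeR adjusted p = 0.132), and it also passed with the block (-0.98 ± 0.19, adjusted p = 0.00133). Ncoa3, which spans 80.6 kb and was the most abundant of the 3, had 57.6 to 119.3 CPM under B[a]P and 60.1 to 183 CPM under DMSO. Its change over 5 backgrounds was -0.23 ± 0.17 (edgeR adjusted p = 0.624; with the block adjusted p = 0.158), which averages both passages. Control-grown cells of passage 20 had 93.7 and 77.1 CPM of Ncoa3 under B[a]P, against 149 and 145 CPM under DMSO. Its log2 change there was -0.79 ± 0.39 (edgeR adjusted p = 0.568, with the block adjusted p = 0.0693). The 4 comparisons of equal replicate number at passage 20 gave -0.92 to -0.40, and the 6 pairs of passage 25 gave -0.06 to 0.44. The passage difference of the B[a]P effect on Ncoa3 was 0.81 ± 0.39 (edgeR adjusted p = 1.00; with the block adjusted p = 0.350), so the passages are not shown to differ. Without replicate 1 of recovered B[a]P cells, Ncoa1 (adjusted p = 0.0315) and Ncoa2 (adjusted p = 0.0368) passed without the block as well.

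Among all genes tested, the B[a]P change was more negative for the longest genes. The median log2 change over 5 backgrounds was -0.06 for the 1289 genes under 3.16 kb, 0.05 for the 2821 genes of 3.16 to 10 kb, 0.07 for the 4985 genes of 10 to 31.6 kb, -0.03 for the 3615 genes of 31.6 to 100 kb, -0.36 for the 1335 genes of 100 to 316 kb and -0.86 for the 251 longer genes. Of the genes of 100 to 316 kb, 80.1% had a negative change, and that bin holds Ncoa1, Ncoa2 and Arnt2. Within it, 8.31% of genes had a lower value than Ncoa2 and 17.0% a lower value than Ncoa1. Ahr, with a span of 37.0 kb, stood further from genes of its own length, where 3.43% lay lower over 5 backgrounds and 1.19% in control-grown cells of passage 20. In the same bin 64.8% of genes lay below Arnt and 25.4% below Ncoa3 over 5 backgrounds. In control-grown cells of passage 20 the shares were 36.1% for Arnt and 13.3% for Ncoa3. The part of genomic span in the values of these members was not tested.

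**Figure D4:**
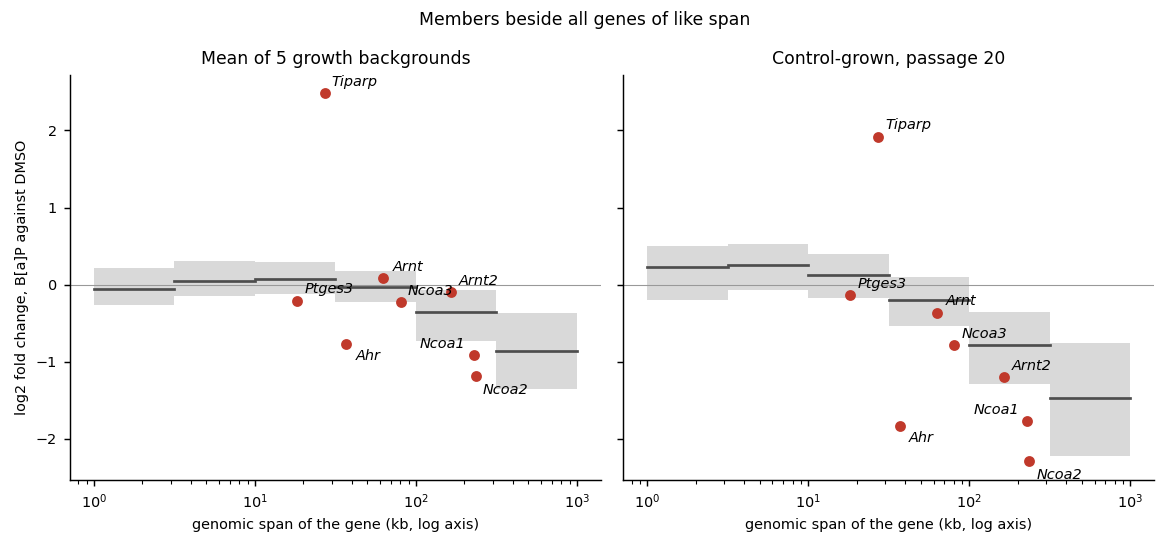
Fitted log2 change with B[a]P against genomic span in kb (log axis) for the 8 members tested (red points), over the median (dark line) and quartiles (grey band) of all genes in each span bin, whose outermost bins are open-ended. Over 5 backgrounds Ahr, Ncoa1, Ncoa2 and Ptges3 lie below the grey bands of their bins and Tiparp above, and Arnt, Arnt2 and Ncoa3 lie within them.

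A dependence on length also appeared between duplicates, with another shape over the bins. In the Cr(VI)-grown DMSO cells of passage 20 the median gene of 100 to 316 kb differed by -0.74, replicate 2 minus replicate 1 (log2). The medians were -0.52 for genes of 31.6 to 100 kb, the bin of Ahr, and 0.04 for 10 to 31.6 kb. Shorter genes were higher in replicate 2, by 0.51 for 3.16 to 10 kb and 0.82 under 3.16 kb. In replicate 2 Ahr (17.8 CPM), Ncoa2 (7.72 CPM) and Ncoa1 (3.28 CPM) were at or near the levels of B[a]P libraries. Its level of Cyp1a1, the receptor's best known target, was 35.4 CPM, against 1195 to 1234 CPM in the 4 B[a]P libraries of passage 20, and its Tiparp was the lowest of that passage at 10.95 CPM. Without it, the change with B[a]P in Cr(VI)-grown cells of passage 20 was -2.08 for Ahr, -2.20 for Ncoa2 and 1.48 for Tiparp, and with it -1.41, -1.43 and 1.95. Without replicate 1 in its place the values were -0.14, 0.27 and 2.63, so for Ahr and Ncoa2 they turned on which of the 2 DMSO libraries was used. At passage 25 the median gene of 100 to 316 kb was likewise lower in replicate 2 than in replicate 1 in all 6 groups, by -0.41 to -0.95.

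Ptges3, the cochaperone, did not change detectably with B[a]P. At passage 20 it had 236 to 269 CPM in the 4 B[a]P libraries and 238 to 268 CPM in the 4 DMSO libraries. In replicate 1 of passage 25 it was 264, 174 and 155 CPM under B[a]P in recovered, Cr(VI)-grown and control-grown cells, against 308, 162 and 283 CPM under DMSO. In replicate 2 of that passage it was 40.7 to 54.4 CPM under B[a]P and 44.9 to 61.1 CPM under DMSO, far below replicate 1. Its change over 5 backgrounds was -0.21 ± 0.45 (edgeR adjusted p = 0.943). A processed pseudogene, Ptges3-ps, exists, so reads may be shared with it and these values are uncertain to that extent.

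Growth with Cr(VI) changed none of the 8 members past the threshold. Under DMSO over both passages all 8 log2 changes of Cr(VI)-grown against control-grown cells were negative, as were 52.3% of those over all genes. They ran from -0.24 for Ncoa3 to -0.79 for Arnt2, with edgeR adjusted p of 0.895 to 0.911. The 8 values come from the same libraries and are not separate observations. In this comparison 0.00% of all genes passed, 685 genes had an unadjusted p under 0.05, DESeq2 called 13 genes and no member, and with the block 0 of 8 members and 0.530% of all genes passed. The negative values at passage 20 leaned on 1 library: without replicate 2 of Cr(VI)-grown cells under DMSO the change there was 0.19 for Ahr and 0.05 for Ncoa2, and without replicate 1 it was -1.75 and -2.41. Under B[a]P the same comparison gave -0.57 to 0.15.

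Recovered cells under DMSO differed from control-grown cells by -0.06 for Ncoa3 to 1.02 for Arnt2, and from Cr(VI)-grown cells by 0.39 to 0.97 (edgeR adjusted p = 1.00 for each). Replicate 1 of recovered cells had the highest Ahr of all libraries, with 166 CPM under B[a]P and 192 CPM under DMSO, but replicate 2 had 29.3 and 32.9 CPM. The 2 comparisons share the recovered libraries. None of 56 tests of an interaction or passage difference of the B[a]P effect in the members passed the threshold.

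**Figure D5:**
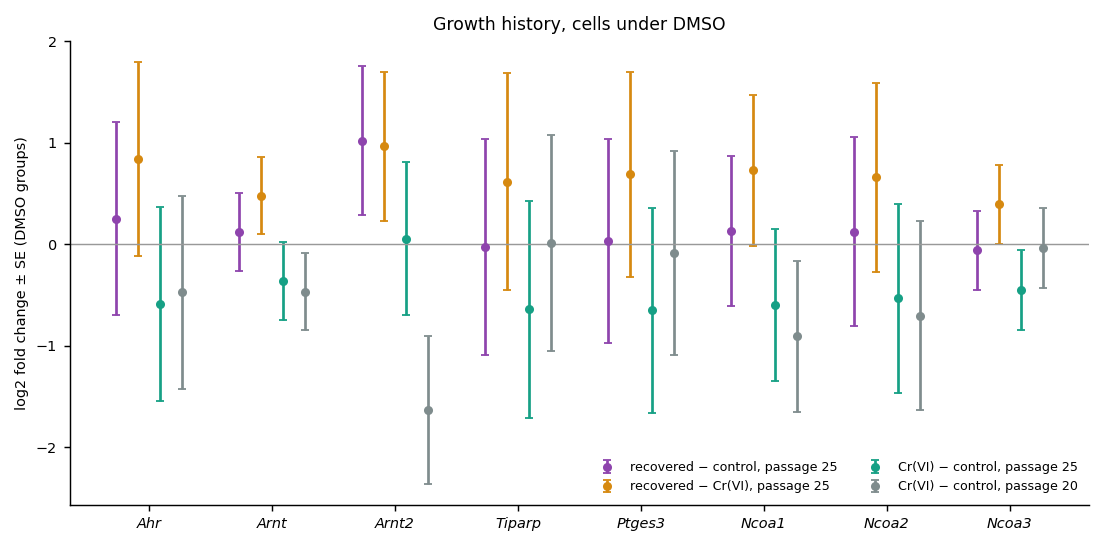
Log2 fold change ± SE (edgeR, 2 against 2 libraries) of growth histories under DMSO for the 8 members tested: recovered against control-grown and against Cr(VI)-grown cells at passage 25, and Cr(VI)-grown against control-grown cells at passage 25 and at passage 20. No value passed the threshold, and Arnt2 at passage 20, with few counts, lies furthest from 0.

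Between passages Ahr was the member that differed most. In Cr(VI)-grown and control-grown cells together it had 25.8 to 134 CPM at passage 25, against 13.8 to 67.9 CPM at passage 20, and the ranges overlapped. Its log2 change was 1.32 ± 0.48 (edgeR adjusted p = 0.0705), and 0 of 8 members passed, where 19.4% of all genes did. With the block, which here sets replicate 1 of passage 25 against the mean of passage 20, the change of Ahr was 2.05 ± 0.29 (adjusted p = 0.000135), and it was 1 of 8 members past the threshold, against 31.0% of all genes. Without the block Ahr passed on leaving out any 1 of the 4 recovered libraries, which enter only the estimate of the spread, at the lowest with adjusted p = 0.0471, and Ncoa3 passed without replicate 1 of Cr(VI)-grown B[a]P cells (adjusted p = 0.0492). Ptges3 was -1.06 ± 0.51 (edgeR adjusted p = 0.150) and Ncoa3 -0.40 ± 0.20 (adjusted p = 0.156). Passage, culture history and the preparation of each set cannot be told apart in this design.

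By a root-mean-square difference of log2 CPM over the 20 libraries, after centring on passage and replicate number, the genes most like Ahr among the other 14342 were Bcor (0.178), Mllt10 (0.201), Sash1 (0.206), Nr2f2 (0.211) and Map4k3 (0.212), where the median gene differed by 0.719. Those most like Tiparp were Cyp1b1 (0.344), Mturn (0.378), 4931440P22Rik (0.402), Cyp1a2 (0.425) and Tbc1d16 (0.437), where the median was 1.35. Cyp1b1 and Cyp1a2 encode cytochromes that oxidise aromatic compounds and are known receptor targets. Of the 5 genes nearest to Ahr, 4 span 123.8 to 223.4 kb and Nr2f2 spans 14.8 kb.

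Known targets of the receptor were read beside the members, from a list chosen with earlier results known. Of 11 targets tested 9 rose with B[a]P over 5 backgrounds and none fell, where 7.59% of all genes passed in either direction. Their median log2 change was 2.04, against -0.0027 over all genes. Cyp1a1 rose by 5.31 ± 0.22 and Nqo1, a quinone reductase, by 3.68 ± 0.15 (edgeR adjusted p = 3.2e-08 for both). Cyp1a2 rose by 2.67 ± 0.16 and Xdh, xanthine dehydrogenase, by 2.04 ± 0.18. None of 8 genes of the receptor's chaperone complex passed, with a median of -0.0041. Hsp90ab1, the constitutive chaperone, gave 0.16 ± 0.26. With the block, where 26.9% of all genes passed, 1 of these 8, the kinase gene Src, was lower (-0.23 ± 0.08, adjusted p = 0.0376).

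Of 13 other nuclear cofactors 2 fell with B[a]P and none rose, with a list median of -0.24. Carm1, an arginine methyltransferase that works with the NCOA proteins, fell by 0.47 ± 0.11 on the log2 scale, to a mean of 58.1 CPM in the B[a]P libraries against 80.0 in the DMSO libraries (edgeR adjusted p = 0.0156). With the block 4 of the 13 fell. In the same comparison 7.59% of all genes passed without the block and 26.9% with it, in either direction, so these counts are not read as particular to the cofactors. Among relatives of Tiparp in the PARP family, 1 of 14 tested rose: Parp10, another mono-ADP-ribosyltransferase, by 1.01 ± 0.24 (51.0 CPM under B[a]P against 25.8 under DMSO, edgeR adjusted p = 0.0199). With the block, where 26.9% of all genes passed in either direction, 6 of these 14 rose and 2 fell. Parp14 was among those that rose, with 0.75 ± 0.12 (adjusted p = 0.000327). The list median was 0.16.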

How the data were processed

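The authors deposited raw read counts per Entrez gene ID, with 1 column for each of the 20 libraries, and every column has its label. Tools listed in the submitters' processing notes are bcl2fastq, CASAVA 1.8, TopHat and DESeq, with the build mm10. How reads were counted, with which annotation and whether by strand, is not given in the sources used here. Gene names, spans and promoter windows came from RefSeq tables of GRCm38.p6 (mm10), and exon lengths from GENCODE M21; 98 IDs had no symbol.

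Genes were filtered with filterByExpr, scaled by TMM and tested with edgeR 4.0.16 in R 4.3.3, quasi-likelihood, 1 mean per group, 10 residual degrees of freedom, two-sided, Benjamini-Hochberg over 14343 genes at 0.05. DESeq2 1.42.0 was an alternative. SE is the size of the log2 fold change divided by the square root of its F value. The scripts were tested on simulated data. Values per pair use log2 CPM with a prior count of 2.

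Replicate 2 minus replicate 1 differences correlated between groups by 0.81 to 0.92 at passage 25 (15 pairs of groups), so the numbers pair those libraries. At passage 20 (6 pairs) the correlations with control-grown DMSO cells were -0.00 to 0.07, and those among the other groups 0.33 to 0.59. The numbers thus do not pair all libraries of that passage. The block fit has 9 residual degrees of freedom, and common dispersion was 0.0530 with the block and 0.228 without.

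All 9 members are named, with up to 4 genes of each other list by smallest p for B[a]P, and the 5 genes most like Ahr and Tiparp. A gene of the cofactor list that this rule names is not reported here. Members, lists and tests were chosen with earlier results of these data known. Library totals of 20976045 to 37930720 counts put 1 count at well under 0.1 CPM.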

Additional observations from a re-analysis of the deposited data

How the results depend on the processing

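Counts of members past the threshold moved with the fit, as did those of all genes. Genes passing for B[a]P over 5 backgrounds were 1089 in the main fit and 1787 with DESeq2. They were 4056 with the block at both passages and 3854 with it at passage 25. In the order main, DESeq2, both passages, passage 25, control-grown cells gave 316, 773, 2399 and 2199. Cr(VI)-grown cells gave 135, 473, 1620 and 1501, and recovered cells 8, 105, 215 and 193. Between passages the gene counts were 2779, 4186, 3401 and 4450. For B[a]P over 5 backgrounds the count of 1 became 4 with the replicate block at both passages or at passage 25, 3 with DESeq2 (Tiparp, Ncoa1 and Ncoa2) and 1 to 3 on leaving out single libraries, with 3 without replicate 1 of recovered B[a]P cells. In control-grown cells the count of 0 became 4 with the block at both passages, 3 with it at passage 25, and 1 with DESeq2 or without the 6 replicate 2 libraries of passage 25. In Cr(VI)-grown cells it became 1 under each of these 4, and in recovered cells 1 under both blocks. Between passages it became 1 under both blocks and DESeq2 (Ahr), 0 to 1 on leaving out single libraries (Ahr without any 1 recovered library, Ncoa3 without replicate 1 of Cr(VI)-grown B[a]P cells), and 2 without the 6 libraries (Ahr and Ptges3). Another fit left out those 6 and replicate 2 of Cr(VI)-grown DMSO cells of passage 20, a choice made after seeing the data. Lone libraries are then assumed to vary like the pairs of passage 20, so its counts of calls are not given. RLE and upper-quartile scaling and no filter on counts moved no count of members, nor did passage 25 alone in the 4 comparisons with recovered cells for which it was run. Of 2720 values of single members under the alternatives, 2651 stayed on their side of the threshold with their direction, 69 passed it newly, none lost a call and none larger than its SE changed sign; 169 smaller ones did. In these comparisons the main fit called only Tiparp, with B[a]P over 5 backgrounds, so nearly all of the values had no call to lose. Many of them come from fits that leave 1 library in a group. The depth limits Ahrr and Arnt2, and 2 libraries a group limit all other members.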

Other observations

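Prostaglandin E synthesis is the second role under which Ptges3 is annotated, and 4 other genes of it were read. Of these, 3 rose with B[a]P over the 5 growth backgrounds, where 7.59% of all genes passed in either direction, and Ptges3 itself did not pass. The list median was 1.13 on the log2 scale. The remaining gene, Ptges2, gave -0.19 ± 0.46 (edgeR adjusted p = 0.955). Ptgs2, the inducible cyclooxygenase, rose by 2.86 ± 0.77 (edgeR adjusted p = 0.0385). Its mean was 120 CPM in the B[a]P libraries against 21.4 in the DMSO libraries, and its median 80.1 against 6.68 CPM. Ptges, the inducible synthase, rose by 1.37 ± 0.31 (edgeR adjusted p = 0.0163) and Ptgs1, the constitutive cyclooxygenase, by 0.90 ± 0.14 (edgeR adjusted p = 0.0017).

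Of 11 other bHLH-PAS genes tested, the family of Ahr and Arnt, none passed, with a list median of 0.25. With the replicate block at passage 25, 1 rose and 2 fell, a share close to the 26.9% of all genes that passed in that fit: Per1 gave 0.29 ± 0.10 (adjusted p = 0.0432), Per2 -0.72 ± 0.19 (adjusted p = 0.0109) and Arntl, the clock partner, -1.16 ± 0.19 (adjusted p = 0.000381). None of 5 genes tested whose products remove ADP-ribose passed in either fit, with a list median of -0.12.

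Marker lists of other cell types had 0 calls for B[a]P over 5 backgrounds without the block (edgeR). With the block 1 of 3 macrophage markers tested was higher and 1 of 2 cholangiocyte markers lower. Of 7 hepatoma markers tested, none passed without the block and 1 was lower with it. In the block fit 26.9% of all genes passed, so these calls are not read as particular to a cell type. Summed levels over the 20 libraries were 136 to 688 CPM for fibroblast and 57.3 to 134 CPM for macrophage markers. They were 0.0854 to 1.37 CPM for endothelium and 293 to 1999 CPM for cholangiocyte markers. Col1a2, Thy1, Ptprc, Epcam, Cdh5, Kdr and Tek stayed under 1 CPM in every library.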
